A study of Mus musculus with 6 samples.

Results

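Msx1, Msx2, Pax9, Barx1, Lhx6 and Lhx8, with Msx1os from the strand opposite Msx1, were followed in upper first molars of newborn mice that carried an Ascl5 mutation on 0, 1 or both alleles. The 7 genes were chosen by symbol as homeobox and paired-box genes of the dental mesenchyme, and all 7 were found among the 24972 genes of both deposited tables. Maxillary first molars were taken at postnatal day 1 from Ascl5WT/WT, Ascl5Mut/WT and Ascl5Mut/Mut mice, with 2 libraries per genotype and 6 in all. The Ascl5WT/WT mice are the control group, and the labels give 1 batch for all libraries. Ascl5, the mutated gene, belongs to the basic helix-loop-helix factors and was at 0 in every library, controls included, so its level does not check the labels. The nature of the mutation, the strain and sex of the mice, and whether a library pooled teeth or animals are not given in the labels, so p-values measure only the spread between these libraries. One table holds the Ascl5WT/WT and Ascl5Mut/Mut libraries and the other the same Ascl5WT/WT libraries with the Ascl5Mut/WT libraries. The tables were normalized separately, so every test stayed within a table.

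Teeth form from an outer epithelium and a mesenchyme that derives from the cranial neural crest. Signals from the epithelium, among them BMP and FGF ligands, switch on Msx1 and Pax9 in the mesenchyme, and these factors together maintain mesenchymal Bmp4, which signals back to the epithelium. Barx1 marks the mesenchyme of the molar region, and the LIM homeobox factors Lhx6 and Lhx8 act in the oral side of the jaw mesenchyme. Msx2 is used in the epithelium as well, where it takes part in ameloblast differentiation. Msx1os is an antisense RNA of the Msx1 locus.

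Across the members, the reads of the dental mesenchyme factors lay almost wholly on Msx1os. The 6 coding members together held an estimated 100.8 reads over the 6 libraries, against 1900.2 on Msx1os. A read is estimated here as the step at which low values cluster, between 108.7 and 139.8 normalized counts depending on the library. Of the members high enough to test, 1 in Ascl5Mut/Mut and 2 in Ascl5Mut/WT, limma called 0 at an adjusted p under 0.05, with 0 at an unadjusted p under 0.05. Among all tested genes 0.856% were called in Ascl5Mut/Mut and 0.549% in Ascl5Mut/WT, while 11.2% and 8.73% had an unadjusted p under 0.05. With so few members tested, a count of 0 is near that background and is not a result about the members.

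Msx1 and Msx1os are read together as 1 locus because they overlap on opposite strands. Msx1 lies on chromosome 5 from 37820485 to 37824583 on the minus strand of GRCm38, as annotated in GENCODE M21. Msx1os spans 37820564 to 37822751 in RefSeq, on the opposite strand. Exons of Msx1 cover 1186 of the 2188 bases of that span, or 54.2%, and 38.3% of the exon bases of Msx1 fall inside it. The overlap holds the coding part of the second exon of Msx1. In the overlap both genes carry the same bases on opposite strands, so only the strand of a read assigns it to 1 of these rows. The kit used keeps the strand, and the strand setting used for counting is not given in the sources used here.

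**Figure D1:**
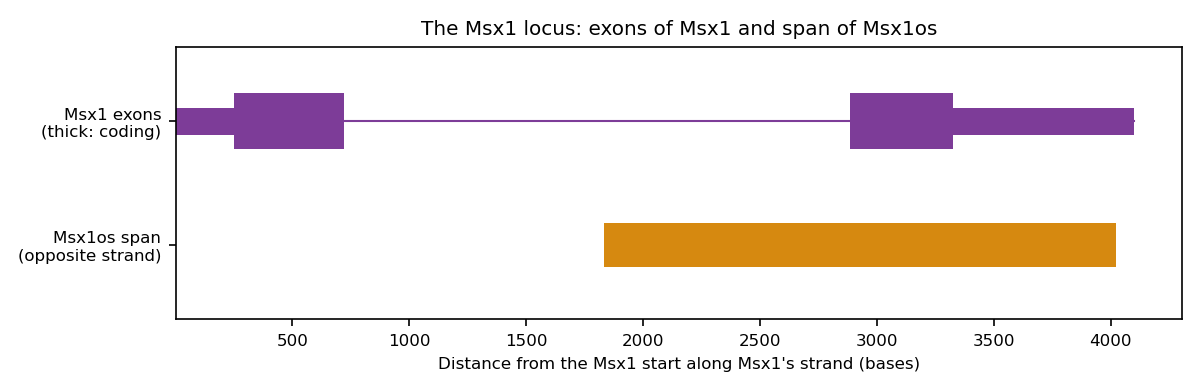
Map of the Msx1 locus, with distance from the Msx1 start in bases on the x axis, drawn along the strand of Msx1. Purple bars are the 2 exons of the coding Msx1 transcript (thick where coding), and the orange bar is the span of Msx1os on the opposite strand, which covers the coding part of the second exon.

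The other homeobox members share the homeodomain, whose recognition helix contacts DNA, and their sequences over that helix are set beside that of Msx2. The stretch is a small part of each transcript, so it does not show how far reads of these genes differ elsewhere. The stretch of 60 coding bases is given 5′ to 3′ in each gene's own sense, with bases that differ from Msx2 in capitals.
Msx2: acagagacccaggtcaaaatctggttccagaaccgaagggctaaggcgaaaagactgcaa
Barx1: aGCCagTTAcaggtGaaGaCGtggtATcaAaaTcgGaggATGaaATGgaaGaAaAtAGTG
Lhx6: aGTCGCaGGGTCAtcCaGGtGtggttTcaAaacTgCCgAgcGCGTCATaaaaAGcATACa
Lhx8: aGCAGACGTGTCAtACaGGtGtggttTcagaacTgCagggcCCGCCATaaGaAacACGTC

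The sequences come from GENCODE M21 transcripts on GRCm38. They lie at chr13:53468370-53468429 (minus strand) for Msx2, chr13:48665429-48665830 (plus) for Barx1, chr2:36091095-36091337 (minus) for Lhx6 and chr3:154311682-154316760 (minus) for Lhx8. Barx1 matched Msx2 at 32 of 60 bases, and Lhx6 and Lhx8 each matched it at 26. Only matches to Msx2 were counted, so Lhx6 and Lhx8 were not compared with each other. The Msx2 stretch lies in 1 exon, while those of Barx1, Lhx6 and Lhx8 run across an intron. Pax9 carries a paired domain and no homeodomain, so it has no line here.

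Msx1os was among the highest values of every library. In the table with Ascl5Mut/Mut it had 81502 and 20145 normalized counts in Ascl5WT/WT replicates 1 and 2, about 749.6 and 168.0 estimated reads. It had 26838 and 34738 in the Ascl5Mut/Mut replicates. Replicate 1 of Ascl5WT/WT stood above the other libraries, replicate 2 stood below both mutant libraries, and the groups overlapped. In the table with Ascl5Mut/WT the Ascl5WT/WT libraries had 82931 and 20967 and the Ascl5Mut/WT libraries 32911 and 37756, with the same arrangement. By normalized count it ranked 6 among all genes in Ascl5WT/WT replicate 1, 70 in replicate 2, 41 and 25 in Ascl5Mut/Mut, and 32 and 23 in Ascl5Mut/WT.

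The spread within Ascl5WT/WT was larger than the difference between the group means. Replicate 1 had 4.05 times the value of replicate 2 in the table with Ascl5Mut/Mut and 3.96 times in the other. The mean of Msx1os was 30788 ± 5586 in Ascl5Mut/Mut against 50823 ± 43386 in Ascl5WT/WT (SD, n = 2 each), and limma put the difference at -0.41 on the log2 scale (SE 0.53, 95% interval -1.60 to 0.78, adjusted p = 0.80). In Ascl5Mut/WT the mean was 35334 ± 3426 against 51949 ± 43815 (SD, n = 2 each), a difference of -0.24 (SE 0.44, 95% interval -1.16 to 0.67, limma adjusted p = 0.883). The direction rested on Ascl5WT/WT replicate 1. With that library left out, the difference came to 0.60 for Ascl5Mut/Mut and 0.75 for Ascl5Mut/WT. Without Ascl5WT/WT replicate 2 it was -1.41 and -1.23. Both intervals hold differences in either direction, so the data do not show that the genotypes were alike.

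Msx1 itself, the coding gene, was above 0 in 1 library. It had 654 normalized counts in Ascl5WT/WT replicate 1, about 6.0 estimated reads, and stood at 0 in Ascl5WT/WT replicate 2 and in all 4 mutant libraries. A value of 0 in a library allows up to 3 reads, or 326 to 419 normalized counts, for counting error only. Msx1os made up 99.2% of the locus sum in Ascl5WT/WT replicate 1 and 100% in the other libraries. Summing both rows therefore left the comparison as it was. The locus sum differed by -0.41 in Ascl5Mut/Mut (SE 0.54, limma adjusted p = 0.794) and by -0.25 in Ascl5Mut/WT (SE 0.44, limma adjusted p = 0.883). Without Ascl5WT/WT replicate 1 these differences were 0.60 and 0.75. Without Ascl5WT/WT replicate 2 the sum was called lower in Ascl5Mut/WT, with a difference of -1.24 (limma adjusted p = 0.0485).

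Per length, Msx1os held 76.8 to 343 estimated reads per kilobase of its span, and its exons may be shorter than the span. Msx1 reached 1.94 reads per kilobase of exon in its highest library. Rows on the strand opposite a coding gene were often the higher ones in these tables. Of 239 pairs of a coding and a non-coding gene whose exons overlap on opposite strands, with a summed mean of at least 1000, the non-coding row was higher in 144, or 60.3%, and held over 90% of the sum in 73. At the Xist locus the antisense row Tsix had 126014 normalized counts in Ascl5WT/WT replicate 2 and 310649 in Ascl5Mut/Mut replicate 2, where Xist had 6106 and 9751. Tsix was at 0 in the libraries in which Y-linked Eif2s3y was detected. Xist is the RNA that coats the inactive X chromosome of female cells. Whether reads were assigned to the strand opposite their origin was not tested, at the Msx1 locus or for any other gene named here.

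**Figure D2:**
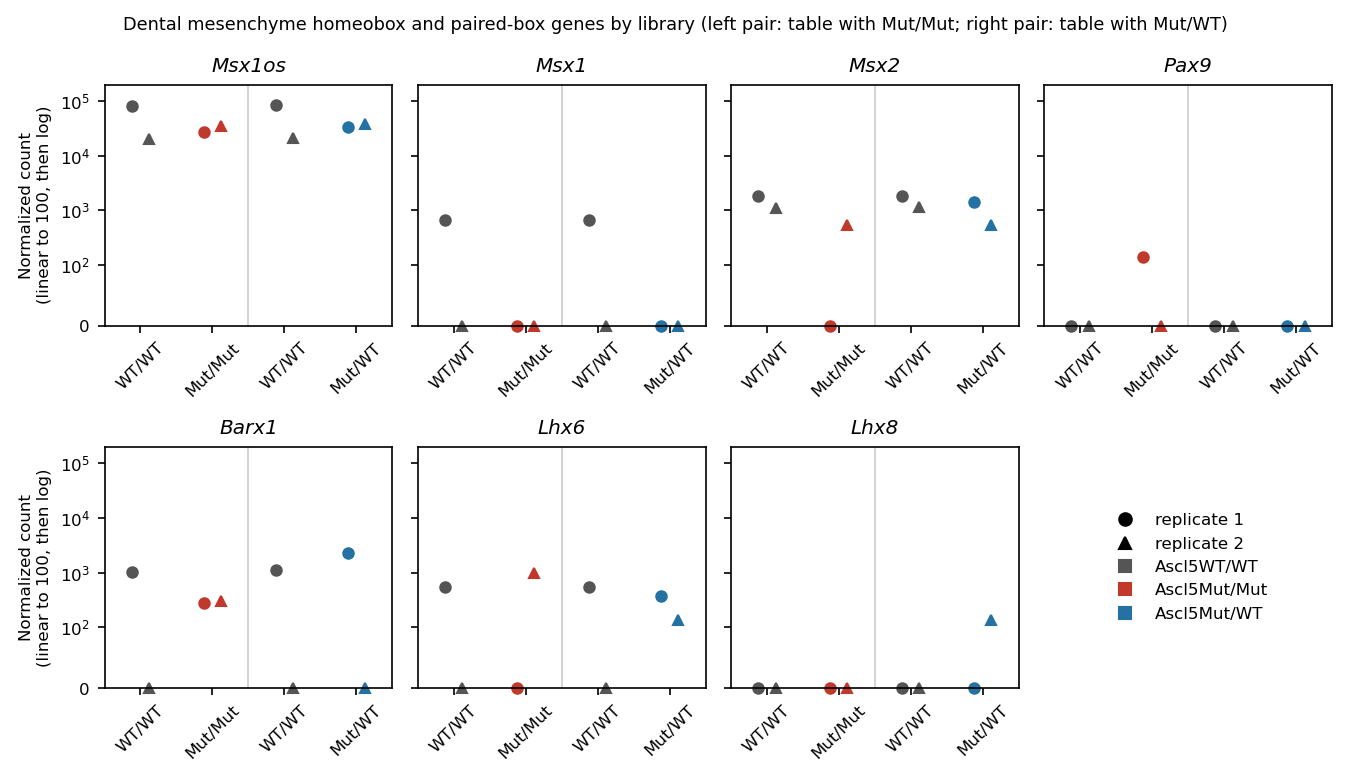
Normalized counts of the 7 genes in every library, on an axis that is linear to 100 and logarithmic above it. Each panel shows the Ascl5WT/WT and Ascl5Mut/Mut libraries of one table on the left and the Ascl5WT/WT and Ascl5Mut/WT libraries of the other on the right; circles are replicate 1 and triangles replicate 2. Msx1os lies at 20145 or above in every library, and no coding member exceeds 2299.

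Msx2, the paralog of Msx1 (chromosome 13, 53466884 to 53473074, minus strand), was detected in 5 of the 6 libraries, more than any other coding member. It had 1834 and 1097 normalized counts in Ascl5WT/WT against 0 and 541 in Ascl5Mut/Mut, so the groups did not overlap and both mutant libraries were lower. The mean was 271 ± 383 against 1466 ± 521 (SD, n = 2 each), which is about 16.9 and 9.1 estimated reads against 0 and 4.0. Of the 4031 genes whose mean reached 500 there, 20.8% had both mutant libraries below both Ascl5WT/WT libraries. Its mean over the 4 libraries, 868, lay below the minimum of 1000 for the test. With the minimum lowered to 500, a setting chosen after its values were seen, the difference was -2.45 (SE 1.19, 95% interval -5.13 to 0.22, limma adjusted p = 0.557).

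In Ascl5Mut/WT molars Msx2 had 1392 and 544 normalized counts against 1864 and 1140 in Ascl5WT/WT. The groups overlapped, with Ascl5Mut/WT replicate 1 between the control libraries. The difference was -0.66 (SE 0.85, 95% interval -2.45 to 1.13, limma adjusted p = 0.835), which is within the spread. Leaving out Ascl5Mut/WT replicate 2 gave -0.06, and leaving out replicate 1 gave -1.25. Set side by side, and with no test between the mutant genotypes, the libraries had 0 and 541 in Ascl5Mut/Mut and 1392 and 544 in Ascl5Mut/WT, and the values of 541 and 544 are each about 4.0 estimated reads. The tables were scaled separately, and the comparisons share the Ascl5WT/WT libraries. Because whole molars were measured, fewer cells of a type and less RNA per cell cannot be told apart.

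**Figure D3:**
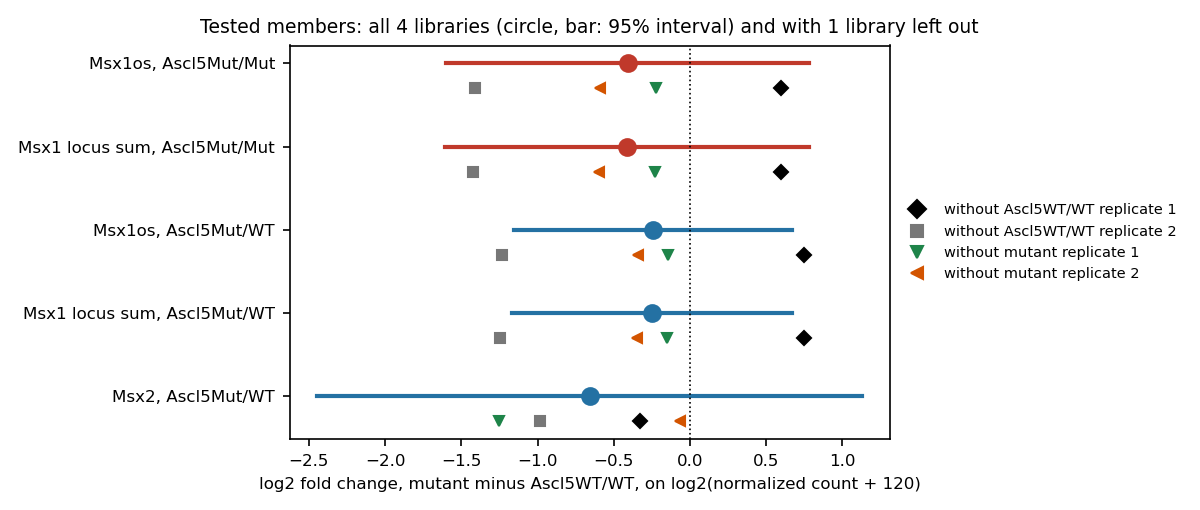
Differences between mutant and Ascl5WT/WT molars for the members that passed the filter, in log2 units of normalized count + 120. Large circles with bars are the estimates from all 4 libraries with their 95% intervals; the small symbols below each give the estimate with 1 library left out, and without Ascl5WT/WT replicate 1 the Msx1os and locus sum estimates move to 0.60 and 0.75.

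Barx1, the homeobox gene of the molar mesenchyme (chromosome 13, 48662998 to 48666507, plus strand), varied between replicates of the same genotype. It had 1029 and 0 normalized counts in Ascl5WT/WT against 273 and 296 in Ascl5Mut/Mut, and 1097 and 0 against 2299 and 0 in the table with Ascl5Mut/WT. Replicate 1 held all of the signal in Ascl5WT/WT and in Ascl5Mut/WT. The Ascl5Mut/Mut libraries, with about 2.0 and 2.2 estimated reads, stood between the control libraries. The groups overlapped in both tables.

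Lhx6 and Lhx8, the LIM homeobox pair, were close to the limit of detection. Lhx6 (chromosome 2, 36081953 to 36105408, minus strand) had 538 and 0 normalized counts in Ascl5WT/WT and 0 and 962 in Ascl5Mut/Mut. It had 378 and 138 in Ascl5Mut/WT, against 550 and 0 for the controls in that table. No genotype had both of its libraries above or below those of another. Lhx8 (chromosome 3, 154306294 to 154330659, minus strand) had 137 in Ascl5Mut/WT replicate 2, about 1 read, and 0 in the remaining 5 libraries.

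Pax9, the paired-box factor that acts with Msx1 (chromosome 12, 56691767 to 56712822, plus strand), had 140 normalized counts in Ascl5Mut/Mut replicate 1, about 1 read, and 0 in the remaining 5 libraries. Its 3′ end shares 189 exon bases with Slc25a21, a mitochondrial carrier gene on the opposite strand. Slc25a21 had 449 and 0 in Ascl5WT/WT, 140 and 264 in Ascl5Mut/Mut, and 0 and 269 in Ascl5Mut/WT. Apart from Msx1 with Msx1os, no other coding member overlaps exons of an opposite-strand gene in GENCODE M21.

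Of the 7 members, 1 passed the minimum mean of 1000 in the table with Ascl5Mut/Mut (Msx1os) and 2 in the table with Ascl5Mut/WT (Msx1os and Msx2). With the minimum lowered to 10, 6 members entered each fit and limma called 0, with 0 at an unadjusted p under 0.05. The intervals of the low members in that fit were wide. Barx1 differed by 0.12 in Ascl5Mut/Mut with a 95% interval of -2.99 to 3.24, and by 0.50 in Ascl5Mut/WT with an interval of -2.33 to 3.32. Msx2 differed by -2.45 in Ascl5Mut/Mut in that fit (SE 1.09, limma adjusted p = 0.709). The fit called 1 of 12731 genes in Ascl5Mut/Mut and 12 of 12644 in Ascl5Mut/WT, and Dlx1, described with the related genes, was not called in Ascl5Mut/Mut there.

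Of 9 genes annotated within 20 kilobases of a member, 5 have a value in the tables, Slc25a21 among them, and these were low. Gm2762, a long non-coding RNA 11254 bases from Msx2, had 980 in Ascl5WT/WT replicate 1, 945 in Ascl5Mut/WT replicate 2 and 0 in the other libraries. AI606473, a transcript that begins 162 bases from Lhx8 on the opposite strand, had 544 in Ascl5Mut/Mut replicate 2, 506 in Ascl5Mut/WT replicate 1 and 0 elsewhere. Morn5 and Rbm18, which flank Lhx6, were listed at 0 in all 6 libraries.

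The genes whose pattern was most like the Msx1 locus were Sh3bp5, Tle3 and Klf4, with Pearson correlations of 0.958, 0.945 and 0.940 over the 6 libraries among 2028 genes compared. The correlations are a description: the control values are means of both tables, the libraries differ in depth, and all 3 genes, like the locus, were highest in Ascl5WT/WT replicate 1. Sh3bp5, which encodes an SH3 domain binding protein, had 6296 and 2767 in Ascl5WT/WT and 3235 to 4318 in the mutant libraries. Its exons share 116 bases with Capn7 on the opposite strand. Tle3, a transcriptional corepressor of the Groucho family, had 5131 and 1054 in Ascl5WT/WT, 1271 and 1268 in Ascl5Mut/Mut, and 1894 and 2409 in Ascl5Mut/WT. Klf4, a zinc-finger factor of differentiating epithelium, had 2356 and 237 in Ascl5WT/WT, and 507 to 1119 in the mutant libraries.

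Most relatives of the members within their gene families were listed at 0, which allows up to 3 reads in a library. Of 22 other Msx, Pax, Barx, Barhl and LIM homeobox genes, 18 were listed at 0 in all 6 libraries and 1, Pax6, was above 0 in all 6. Pax6 had 2217 and 5167 in Ascl5WT/WT, 4028 and 1051 in Ascl5Mut/Mut, and 4168 and 1616 in Ascl5Mut/WT. The groups overlapped, and the differences were -0.67 (limma adjusted p = 0.75) and -0.39 (limma adjusted p = 0.862).

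Partners of LIM homeobox factors included 1 called gene. Over all genes tested, 0.557% were called higher and 0.3% lower in Ascl5Mut/Mut, and 0.338% higher and 0.211% lower in Ascl5Mut/WT. Of 10 listed, 3 were tested in each comparison, and 1 was called higher in Ascl5Mut/Mut while 0 passed in Ascl5Mut/WT. Ssbp2, a single-stranded DNA binding protein that stabilizes the LDB1 cofactor, had 1096 and 1611 in Ascl5WT/WT against 8872 and 12301 in Ascl5Mut/Mut. Both mutant libraries lay above both control libraries, as they did for 22% of the genes tested. It rose by 2.87 (SE 0.51, limma adjusted p = 0.0356), and the call was lost without Ascl5WT/WT replicate 1 (adjusted p = 0.0974), without Ascl5Mut/Mut replicate 1 (0.333) and without replicate 2 (0.383). It was also lost with a pseudocount of 1, with a minimum mean of 10 or 500, with no filter and without the trend (0.0875, 0.576, 0.0617, 0.0907 and 0.235). In Ascl5Mut/WT it had 11631 and 4267 against 1106 and 1664, a difference of 2.28 (limma adjusted p = 0.0816). The exons of Ssbp2 overlap those of the antisense gene 4833422C13Rik by 1765 bases, and that row had 9334 and 14009 in Ascl5WT/WT against 17443 and 13860 in Ascl5Mut/Mut. Ldb1, the cofactor that LIM factors bind, had 1036 and 1514 against 1009 and 595, a difference of -0.61 (limma adjusted p = 0.834). Rlim, a ubiquitin ligase of LIM cofactors, was tested in Ascl5Mut/Mut (-0.38, limma adjusted p = 0.935), and Ssbp3, a paralog of Ssbp2, in Ascl5Mut/WT (1.03, limma adjusted p = 0.813).

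Among 44 other transcription factors of the dental and jaw mesenchyme, 8 were listed at 0 in all 6 libraries and 5 were above 0 in all 6. In Ascl5Mut/Mut 3 were tested, of which 1 was called lower and 0 higher, beside 0.3% and 0.557% of all genes tested. In Ascl5Mut/WT 2 were tested, and again 1 was called lower and 0 higher, beside 0.211% and 0.338%. Dlx1, a distal-less homeobox gene of the jaw mesenchyme, was the gene called lower in both. Its Ascl5WT/WT libraries had 47224 and 53336 against 2348 and 556 in Ascl5Mut/Mut, a log2 difference of -5.28 for Dlx1 (SE 0.57, adjusted p = 0.004045 by limma). In the table with Ascl5Mut/WT it had normalized counts of 48116 and 55586 against 4658 and 2064, a fall with a log2 difference of -4.004 (SE 0.40, limma adjusted p = 1.415e-05). No library of either mutant genotype reached the controls. The antisense gene Dlx1as, whose exons overlap Dlx1 by 335 bases, had 27823 and 10656 in Ascl5WT/WT, 3897 and 1241 in Ascl5Mut/Mut, and 5177 and 8403 in Ascl5Mut/WT. The Dlx1 calls were lost without either library of the mutant genotype (limma adjusted p = 0.0842 and 0.0802 for Ascl5Mut/Mut, 0.0672 and 0.55 for Ascl5Mut/WT). They were also lost without the trend (0.163 and 0.216) and, for Ascl5Mut/Mut, with a minimum mean of 10 (0.311). Lef1, a Wnt effector that Msx1 and BMP signalling act on, had 1237 and 1270 against 884 and 678 in Ascl5Mut/Mut. Its groups did not overlap, and its difference of -0.62 did not pass (limma adjusted p = 0.827). Both mutant libraries lay below both control libraries for 21.8% of the genes tested there. In the table with Ascl5Mut/WT, Lef1 had 1127 and 1183 against 436 and 777, again with no overlap. It lay below the minimum mean of the test in that table, for which the share over all genes is not given. Trps1, a GATA-type factor of mesenchyme, was tested in Ascl5Mut/Mut (1.81, limma adjusted p = 0.514), and Alx4, a paired-type homeobox gene, in Ascl5Mut/WT (1.46, limma adjusted p = 0.675). Runx2, a factor of bone and tooth mesenchyme that Msx1 regulates, had 1405 and 540 in Ascl5WT/WT against 0 and 141 in Ascl5Mut/Mut, an arrangement that 20.8% of genes with a mean of 500 or more had. In Ascl5Mut/WT it had 1323 and 414 against 1483 and 583, and the groups overlapped. It lay below the minimum mean of the test in both tables.

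**Figure D4:**
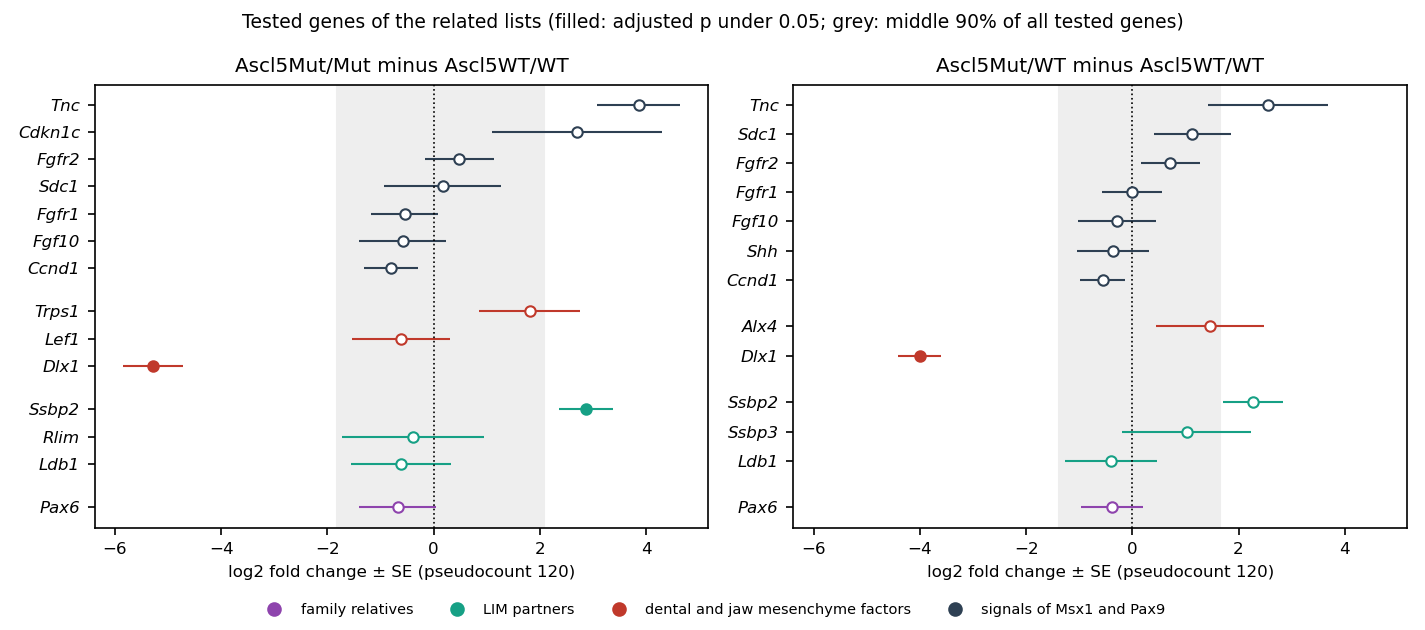
Differences between mutant and Ascl5WT/WT molars for the tested genes of 4 related lists, in log2 units of normalized count + 120, with SE bars. Filled points passed at an adjusted p under 0.05 and the grey band holds the middle 90% of all tested genes. Dlx1 lies far below the band in both panels, and Ssbp2 is filled in the Ascl5Mut/Mut panel.

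Signals that act on Msx1 and Pax9, or follow them, gave 0 called genes. Of 34 listed, 7 were tested in each comparison by limma, with 1 at an unadjusted p under 0.05 in each, Tnc. The median difference was 0.17 in Ascl5Mut/Mut, with 4 of 7 above 0, and -0.01 in Ascl5Mut/WT, with 3 of 7 above 0, beside -0.02 and 0.04 over all genes tested. Tnc, a matrix protein of condensing mesenchyme, had 545 and 119 in Ascl5WT/WT against 5876 and 5500 in Ascl5Mut/Mut, a difference of 3.87 (SE 0.78, limma adjusted p = 0.0566). Ccnd1, a cyclin of the cell cycle, had 10270 and 7039 against 7416 and 3140, a difference of -0.80 (limma adjusted p = 0.579). Sdc1, a syndecan of the dental mesenchyme, had 767 and 938 against 419 and 2085, and its groups overlapped. Cdkn1c, a cyclin-dependent kinase inhibitor, had 0 and 576 against 1954 and 1564 (2.69, limma adjusted p = 0.557). The control means of Tnc (332 with Ascl5Mut/Mut and 339 with Ascl5Mut/WT) and of Cdkn1c (288) lay below the minimum of 1000. Both genes entered the test only through the mutant libraries where they are high, so their positive differences are a description and no support for a rise. Bmp4, the ligand that Msx1 and Pax9 maintain, had 281 in Ascl5Mut/Mut replicate 1, 137 in Ascl5Mut/WT replicate 2 and 0 in the other libraries. Fgf3, a further mesenchymal target of Msx1, was listed at 0 in all 6 libraries. Fgf10 had 2183 and 994 in Ascl5WT/WT against 964 and 933 in Ascl5Mut/Mut, a difference of -0.58 that did not pass (limma adjusted p = 0.817). Its lowest control and highest mutant library, 994 and 964, lay closer in normalized counts than the value of 1 read in either library (119.9 and 139.8). Because that value differs between the libraries, this is not a distance in reads. In the table with Ascl5Mut/WT it had 2208 and 1029 against 1010 and 1465, and the groups overlapped.

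Markers of other tissue moved with genotype beside these values, and their part in the results was not tested. Vim and Col1a1 of mesenchyme and Krt14 of epithelium had at least 3725, 11973 and 6362 normalized counts in every library, and they mark other oral tissue as well as tooth. Of markers closer to the tooth, the enamel protein gene Amelx was at 0 in 5 of 6 libraries. Shh, Sp6 and Epcam were at 0 in both Ascl5Mut/Mut libraries. Their Ascl5WT/WT values were 2146 and 1340, 1525 and 0, and 217 and 120, those of Epcam being below 3 estimated reads. Of 14 dental epithelium markers, 7 were at 0 in both Ascl5Mut/Mut libraries and 3 in both controls. Within the table with Ascl5Mut/Mut, Krt14 and Cdh1 of that list were lowest in Ascl5Mut/Mut replicate 1 (6362 and 280) and highest in replicate 2 (20549 and 1769). The Ascl5Mut/WT libraries were split in the same order, with 13174 and 36780 for Krt14 and 127 and 2307 for Cdh1. Dspp, the dentin sialophosphoprotein of odontoblasts, had 327 and 0 in Ascl5WT/WT and 0 in both Ascl5Mut/Mut libraries. In the table with Ascl5Mut/WT, Dspp had 336 and 0 against 14045 and 8122 and was called higher (log2 difference 5.53, SE 0.76, limma adjusted p = 0.0003992). With a control mean of 168, Dspp reached the minimum mean of 1000 only through the mutant libraries where it is high. Its call is therefore a description of these libraries, and without the trend 0 genes were called in that comparison. The summed dental papilla and odontoblast markers ranged from 37659 to 63234 in Ascl5WT/WT and from 76430 to 126520 in Ascl5Mut/Mut. Col1a1 and Col1a2, which bone also makes, had 46509 and 60762 in Ascl5Mut/Mut replicate 1, while Notch2 of the same list had 6008 and 8856 in the controls against 1255 and 2215 (limma adjusted p = 0.168). Those of dental epithelium ranged from 39605 to 47597 and from 8927 to 31376, and those of dental follicle from 14085 to 19818 and from 64376 to 66455. Most of the follicle sum in Ascl5Mut/Mut lay on Igfbp5 (38667 and 43801) and Postn (16124 and 11457). Aspn and Tnn of the same list differed by 0.01 and -0.23 on the log2 scale. The keratinized oral epithelium sum was 1990 to 3340 against 21754 to 139742, the bone sum 655 to 7431 against 27905 to 36997, and the osteoclast sum 120 to 539 against 11955 to 17463. Both Ascl5Mut/Mut libraries lay above both controls for 22% of the genes tested, all of which reached the minimum mean of 1000. Of 14 keratinized epithelium markers 11 were higher in this way, as were 7 of 9 bone, 4 of 8 osteoclast and 4 of 10 follicle markers. Only 9, 3, 2 and 5 of these markers reached that mean. In both controls 7, 4, 4 and 4 of these markers were at 0, among them Lor, the cornified envelope protein loricrin, and Dmp1, a matrix protein of bone. In Ascl5Mut/WT the follicle, keratinized epithelium, bone and osteoclast sums were also higher in both mutant libraries, and those of papilla and dental epithelium overlapped. The muscle sum overlapped in both tables and reached 94158 in 1 Ascl5Mut/Mut library. Replicate 1 of each genotype had counts of Eif2s3y and replicate 2 had none, so the replicates of a genotype also differ in sex-linked genes, among them the Ascl5WT/WT libraries that differ in Msx1os. Those Ascl5WT/WT libraries, in the table with Ascl5Mut/Mut, also had muscle sums of 543 and 12215 in replicates 1 and 2. Their endothelium and blood sums were 818 and 16983, and their myeloid sums 1754 and 596. Whether any of these differences goes with that of Msx1os was not tested.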

How the data were processed

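RNA from 6 libraries was measured. The authors deposited normalized gene counts in 2 tables, used as a linear signal; mm10 and DESeq2 are named in the submitters' processing notes, without versions. The libraries were made with a stranded SMARTer kit, per the labels' protocols. Aligner, annotation and strand setting: not given in the sources used here. Total normalized counts ranged from 12304814 to 13118122 per library, about 90476 to 117166 estimated reads, and 66.6% to 71.0% of genes were at 0. Of values up to 5 estimated reads, 86.0% to 93.8% lay within 0.1 of a whole number, too few for a count model. Depths and floors cover counting error only.

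Using limma 3.58.1 (R 4.3.3) with a mean-variance trend, Ascl5Mut/Mut and Ascl5Mut/WT were each set against Ascl5WT/WT on log2(normalized count + 120), for genes whose mean reached 1000, two-sided, with Benjamini-Hochberg adjustment over all tested genes and calls at 0.05. The pseudocount is about 1 read, and fold changes on this scale understate those of low genes. With 2 libraries a group, exact permutation reaches no lower than p = 0.33, so it was left out. The fit was run on simulated counts with known changes, drawn with the same spread setting for every gene. The spread between the real libraries was not modelled, so that run does not check the calls given here. The members, lists and settings were chosen with earlier results of these data known. Named genes are the members, every called gene of each related list and otherwise its 4 largest differences, neighbours within 20 kilobases, and the 3 genes most correlated with the Msx1 locus; Runx2, Bmp4, Fgf3, Fgf10 and the markers were added after their values were seen. Coordinates are from GENCODE M21 (GRCm38), and that of Msx1os from RefSeq on the same build. In the table with Ascl5Mut/WT, 11 March genes carry unreadable names and were not joined across tables. Alternatives were other pseudocounts, minimum means and scalings, no trend, a replicate block, and leaving out each library.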

Additional observations from a re-analysis of the deposited data

How the results depend on the processing

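No coding member, Msx1os or locus sum was called under any pseudocount, minimum mean, scaling, trend or block setting run, and 1 call appeared on leaving out a library. Leaving out 1 library moved Msx1os between -1.41 and 0.60 in Ascl5Mut/Mut and between -1.23 and 0.75 in Ascl5Mut/WT, and the locus sum between -1.42 and 0.60 and between -1.24 and 0.75. The positive values came without Ascl5WT/WT replicate 1, and the cause was not tested. The Ascl5Mut/WT locus sum was called without Ascl5WT/WT replicate 2 (limma adjusted p = 0.0485). A group left with 1 library was assumed to vary like the other. Msx2 in Ascl5Mut/WT ranged from -1.25 to -0.06.

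Over all genes, the 20 calls for Ascl5Mut/Mut became 4 with a pseudocount of 1, 1 and 10 with a minimum mean of 10 and 500, 40 after quantile normalization and 0 without the trend (limma, 242 at an unadjusted p under 0.05). The 13 calls for Ascl5Mut/WT became 8 with a pseudocount of 1, 489 with no filter and 0 without the trend (limma, 190 unadjusted). Leaving out 1 library gave 0 to 33 and 0 to 34 calls, with 0 without either mutant library (limma, 224 to 262 and 113 to 127 unadjusted). The replicate block gave 36 and 37 calls, and Msx1os then had adjusted p = 0.757 and 0.89. Deviations of libraries with the same number correlated at -0.01 and 0.02, although replicate number follows sex-linked genes in every genotype. Few reads limit every coding member. The strand setting used for counting is not given, and whether reads of any member were assigned to the opposite strand was not tested.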
